A study of Glycine max with 24 samples.

Results

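E2, E3 and E4 are soybean (Glycine max) maturity loci, at which natural variants shift the time of flowering. They were chosen by locus identifier, as every row of the expression table used here that belonged to Glyma10g36600 (E2, a GIGANTEA homologue), Glyma19g41210 (E3, phytochrome A3) or Glyma20g22160 (E4, phytochrome A2). Of the 3 loci, 2 gave a row, so 2 of its 41743 transcripts are described: Glyma19g41210.1 for E3 on chromosome 19 and Glyma20g22160.1 for E4 on chromosome 20. The level of E2, Glyma10g36600.1 on chromosome 10, was not analysed here, and only the loci beside it are described.

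Phytochromes are photoreceptors that switch between a red-absorbing and a far-red-absorbing form. Phytochrome A is the type that accumulates in the dark and senses far-red and very weak light. GIGANTEA is a clock-controlled protein that links the circadian clock to the flowering pathway. In soybean, functional alleles of E2, E3 and E4 delay flowering in long days, a pathway that ends in lower expression of florigen genes of the FLOWERING LOCUS T family in leaves.

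The RNA came from trifoliolate leaves detached from plants aged 3 weeks and grown with a photoperiod of 16 h. The 4 lines were LD and LDX, the parents of a recombinant inbred population, and R-11268 and R-11272, inbred lines from it. Leaves of 5 plants of a line were pooled, sliced and floated on water overnight. The slices were then held for 30 min in 5 ml of a mock solution of water and DMSO (control), or in 5 ml of a solution with flg22 (1 µM) and chitin (50 µg, from crab shell) (MAMP), all in the dark. Flg22 is a piece of bacterial flagellin and chitin is a fungal cell wall polymer, and plants sense both as microbe-associated molecular patterns. The alleles that the lines carry at E2, E3 and E4 are not given in the labels. Each of the 8 groups held 3 libraries, numbered 1 to 3, and a number was read as one plant pool that gave a control and a MAMP library.

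Library totals ranged from 9780810 to 20827163 estimated counts. Pool 2 of LD, pool 3 of LDX and pool 1 of R-11272 stood apart from the other 9 on the first principal component, which held 48.6% of the variance. Their scores were 49.2 to 139, against -11.9 or lower in every other library. In each line the MAMP to control ratio of a transcript was the same in the 3 pools, apart from a library-wide factor, as in values fitted by a model (99th percentile of its SD at most 2.04e-09 on the log2 scale). The table therefore holds no replicate error of a MAMP effect, and p-values and SDs below measure spread between pools only as these fitted values hold it. Both members passed the filter on low counts, with 1664 to 2057 estimated counts per group of 3 libraries for E3 and 3410 to 4748 for E4. At the lowest of these sums counting error alone allows -4.75% to 4.92% for E3 and -3.33% to 3.41% for E4 (exact Poisson 95% interval).

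E3 stood at nearly one level in all 4 lines and in both treatments. In control leaves it measured 40.5, 42.9 and 35.3 CPM (estimated counts scaled to the same library size) in the 3 LD pools. In LDX it measured 38.6, 39.96 and 39.6 CPM. In R-11268 it measured 34.3, 35.0 and 39.9 CPM. One library was low: R-11272 gave 26.9, 37.5 and 40.5 CPM, and the value of 26.9 belonged to pool 1, which stands apart. The control libraries overlapped in 6 of 6 pairs of lines.

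After MAMP treatment E3 measured 40.2, 41.5 and 34.7 CPM in LD and 40.1, 41.9 and 42.2 CPM in LDX. It measured 35.7, 36.7 and 41.5 CPM in R-11268 and 26.9, 37.8 and 40.6 CPM in R-11272. The low library was again that of R-11272 pool 1, and 6 of 6 pairs of lines again overlapped. From the highest to the lowest mean, the groups ran from LDX MAMP (41.4 ± 1.14 CPM, SD, n = 3) through LD control (39.5 ± 3.88), LDX control (39.4 ± 0.68), LD MAMP (38.8 ± 3.64), R-11268 MAMP (37.99 ± 3.09), R-11268 control (36.4 ± 3.06) and R-11272 MAMP (35.1 ± 7.25) to R-11272 control (35.0 ± 7.16). No step between neighbours in this order exceeded the larger of their SDs. Without pool 1 the control mean of R-11272 was 39.0 CPM (2 pools), within the range of the parents.

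E4, the other phytochrome A gene, varied more between pools and lines. In control leaves it measured 121, 94.97 and 89.4 CPM in LD. In LDX it measured 98.3, 90.0 and 66.6 CPM, the last in the pool that stands apart. In R-11268 it measured 81.5, 96.9 and 84.5 CPM. In R-11272 it measured 57.8, 79.3 and 79.6 CPM, and here too the lowest value came from the pool that stands apart. The 3 LD libraries and the 3 R-11268 libraries all lay above those of R-11272, whereas the other 4 of 6 pairs of lines overlapped. Such a gap in the same direction was found in 11.6% of all tested transcripts for LD over R-11272 and in 13.7% for R-11268 over R-11272, so neither is unusual in this table.

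After MAMP treatment E4 measured 121, 92.2 and 88.2 CPM in LD. It measured 89.8, 83.1 and 62.5 CPM in LDX, and 74.7, 89.2 and 77.2 CPM in R-11268. It measured 50.5, 69.7 and 69.6 CPM in R-11272, the lowest group. The order of means was LD control (102 ± 17.1 CPM, SD, n = 3), LD MAMP (100.5 ± 17.8), R-11268 control (87.7 ± 8.16), LDX control (84.9 ± 16.4), R-11268 MAMP (80.4 ± 7.73), LDX MAMP (78.5 ± 14.2), R-11272 control (72.2 ± 12.5) and R-11272 MAMP (63.3 ± 11.1). No step between neighbours in this order exceeded the larger of their SDs. Across all 24 libraries the highest E4 value was 2.40 times the lowest, against 1.60 times for E3. Fewer cells with the transcript and less transcript per cell cannot be told apart in such bulk samples.

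**Figure D1:**
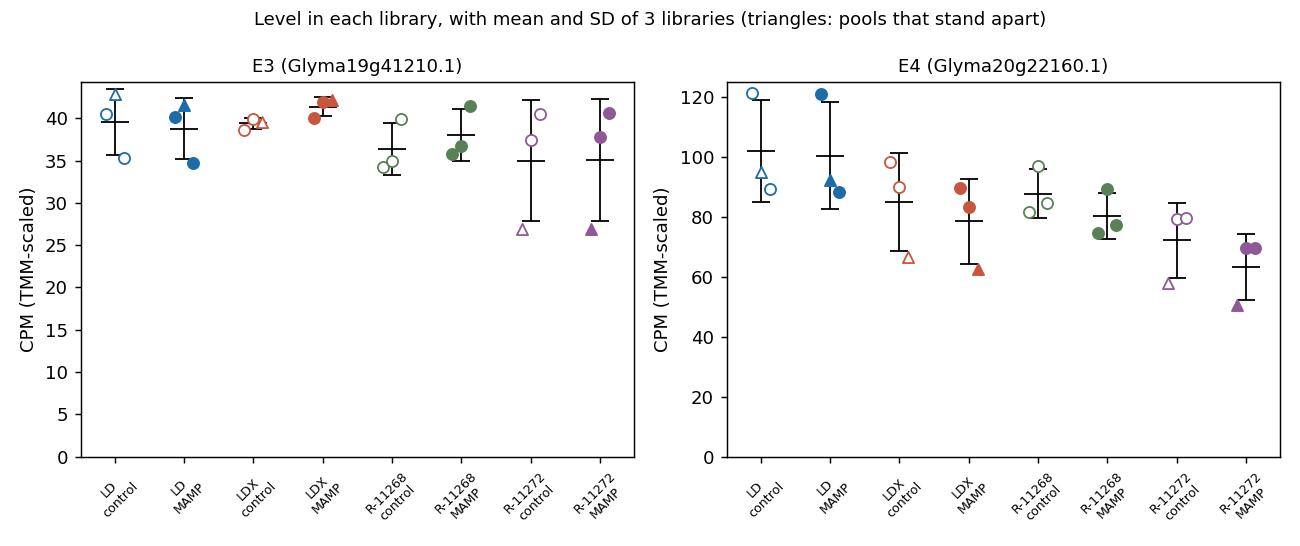
Level of E3 (left) and E4 (right) in CPM, scaled by TMM, in each of 24 libraries, by line and treatment. Open points are control and filled points MAMP libraries, triangles mark the 3 pools that stand apart, and bars give the mean and SD of 3 libraries. E3 lies between 26.9 and 42.9 CPM, with its lowest values in R-11272 pool 1, and E4 between 50.5 and 121 CPM, highest in LD and lowest in R-11272.

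The first comparison was between lines in control leaves. With edgeR's quasi-likelihood test and Benjamini-Hochberg adjustment over 33214 transcripts, neither E3 nor E4 was called between lines. The F test over the 4 lines gave an adjusted p of 0.834 for E3 and 0.45 for E4, whereas it called 8.0% of all transcripts. Each pool entered this fit as both a control and a MAMP library, and the MAMP library repeats the deviation of the control library. Line p-values and intervals from this fit may therefore be too small, and its shares of calls too high. With control libraries only, the F test called 1233 of 32172 transcripts and LD minus LDX 1003 of 32172 (edgeR). Over all comparisons made here, 0 of 26 tests of the members passed in edgeR, 1 of 26 had an unadjusted p under 0.05, and DESeq2 and limma-voom also called 0 of 26.

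Between the parents, E3 differed by 0.01 on the log2 scale (LD minus LDX, 95% interval -0.33 to 0.35, edgeR adjusted p = 0.997). The interval spans 0.793-fold to 1.27-fold, so a parental difference of 2-fold would lie outside it, although intervals from this fit may be too narrow. E4 differed by 0.26 (-0.17 to 0.69, edgeR adjusted p = 0.673), or 0.89-fold to 1.62-fold. It was 0.10 without LD control library 1 and 0.37 without LDX control library 1. This contrast called 5.24% of all transcripts.

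Between the inbred lines, R-11268 minus R-11272 was 0.06 for E3 (-0.28 to 0.40, edgeR adjusted p = 0.88). For E4 it was 0.28 (-0.15 to 0.71, edgeR adjusted p = 0.504). The background of calls was 1.96% here. For E3 the value rests on R-11272 pool 1: without the 3 pools that stand apart it was -0.10 (edgeR adjusted p = 0.665).

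Against the parents, E3 in R-11268 was at -0.12 relative to LD and -0.11 relative to LDX, and E3 in R-11272 at -0.18 and -0.17 (edgeR adjusted p = 0.905, 0.756, 0.644 and 0.938 in that order). The R-11272 values rest on its control library 1, without which they were -0.0186 and -0.0125. E4 in R-11268 was at -0.22 relative to LD and 0.05 relative to LDX (edgeR adjusted p = 0.857 and 0.932), and without LD pool 1 the first was -0.0366. In R-11272 it was at -0.23 relative to LDX (edgeR adjusted p = 0.91). The widest gap was that of E4 between R-11272 and LD, at -0.50 (-0.93 to -0.07). Its unadjusted p was 0.0262 and its adjusted p 0.223 (edgeR), so it is not called. In this contrast 65.8% of all tested transcripts differed by less. Without the 3 pools that stand apart it was -0.41 (edgeR adjusted p = 0.188). These contrasts called 1.52% of all transcripts for R-11268 against LD, 3.84% for R-11268 against LDX, 4.0% for R-11272 against LD and 2.24% for R-11272 against LDX.

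The second comparison was between treatments. Averaged over the 4 lines the MAMP response of E3 was 0.03 on the log2 scale (95% interval -0.14 to 0.20, edgeR adjusted p = 0.957), and that of E4 was -0.11 (-0.33 to 0.10, edgeR adjusted p = 0.752). The test called 9.75% of all transcripts. These intervals rest on the spread between pools and not on replicate error of the response, which the table does not hold, so they set no limit on its size.

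By line, the E3 response was -0.03 in LD and 0.07 in LDX, with 0.06 for R-11268 and 0.00447 for R-11272. Its sign differed between lines and turned with the scaling of the libraries. With total counts alone the mean was -0.03. The E4 response was -0.02 in LD and -0.11 in LDX, with -0.13 for R-11268 and -0.19 for R-11272. After scaling the MAMP library lay below the control library in 12 of 12 pools. Because the fitted values give each line 1 ratio, these 12 pools carry 4 separate values. With the 4 lines as replicates the mean of -0.11 had an unadjusted p of 0.163 and an adjusted p of 0.396 (limma). The inbred lines descend from LD and LDX, so the 4 lines are not independent replicates. The edgeR adjusted p lay between 0.98 and 1 in each line for both genes, against a background of calls of 4.67% (LD), 3.78% (LDX), 3.39% (R-11268) and 4.30% (R-11272).

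Whether the responses differed between lines cannot be decided from these values, which hold no replicate error of the response. An F test without pairing can use only the spread between pools as its error. The F test over the 4 responses gave an adjusted p of 1 for both E3 and E4 (edgeR), with 0.148% of all transcripts called. A fit with a replicate block, which pairs the 2 libraries of a pool, called E4 for the mean response (-0.11, edgeR adjusted p = 5.94e-12), the difference between lines (edgeR adjusted p = 0.00512) and the response in LDX, R-11268 and R-11272, but not E3 (0.03, edgeR adjusted p = 0.337). That fit has no replicate error of the response to test against, since the deposited ratios are the same in every pool of a line. It called 18199 of the 33214 transcripts, and nothing is read from it.

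**Figure D2:**
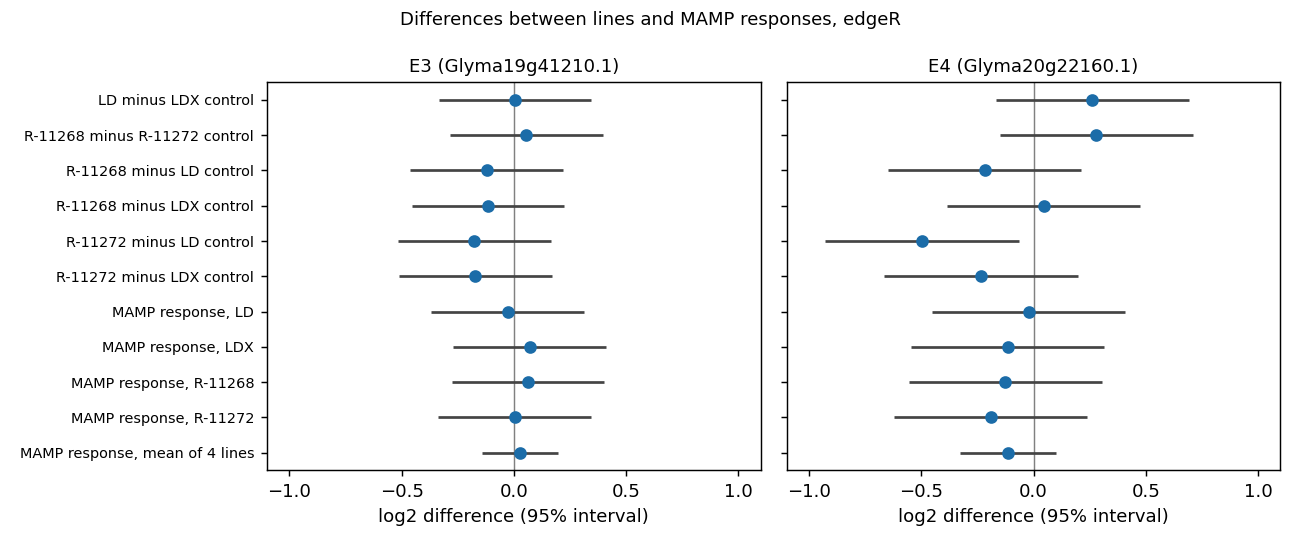
Log2 differences of E3 (left) and E4 (right) for the 6 pairs of lines in control leaves and for the MAMP response in each line and on average, with 95% intervals from edgeR, which for the MAMP responses hold no replicate error of the response. The interval of 1 of 22 differences, that of E4 in R-11272 minus LD, lies wholly on one side of 0, and none of the 22 passed after adjustment.

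The spread between libraries of both genes ranked on the low side among transcripts above a floor of abundance. That set was not matched to the abundance of E3 and E4. The biological coefficient of variation that edgeR fitted was 17.0% for E3 and 20.9% for E4. Among 19236 transcripts that averaged at least 100 estimated counts, 14.3% had a smaller value than E3 and 28.4% a smaller value than E4.

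The ratio of E4 to E3 within a library does not depend on how libraries are scaled. It is a ratio of estimated counts, not corrected for transcript length, so only its changes between libraries can be read. In control leaves it was 3.00, 2.22 and 2.54 in the LD pools. In LDX it was 2.54, 2.25 and 1.68. In R-11268 it was 2.38, 2.77 and 2.12, and in R-11272 it was 2.15, 2.11 and 1.96. The ratios of LD lay above those of R-11272 without overlap, and the other 5 of 6 pairs of lines overlapped. The ratio of a transcript to E3 had such a gap, with LD higher, in 5.85% of 33213 other transcripts. In R-11272 the pool that stands apart had a ratio like that of the others, so both transcripts were low in it together. In LDX pool 3 only E4 was low. After MAMP treatment the mean ratio was 2.59 ± 0.395 in LD and 1.90 ± 0.386 in LDX, with 2.13 ± 0.287 for R-11268 and 1.81 ± 0.0866 for R-11272 (SD, n = 3). Within a line these are the control ratios times 1 constant, so they are no separate observation of the gap. Ratios are given as a description, with no test.

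**Figure D3:**
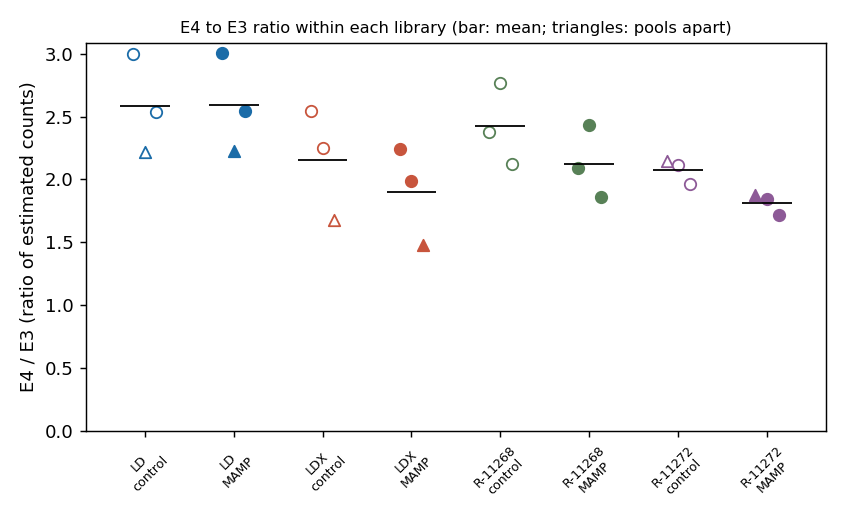
Ratio of E4 to E3 estimated counts in each library, by line and treatment, with bars at the mean of 3 libraries and triangles for the pools that stand apart. All LD ratios, from 2.22 to 3.01, lie above the R-11272 ratios, from 1.71 to 2.15, a gap that 5.85% of other transcripts showed in their control ratio to E3.

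The likeness of E3 and E4 across the 24 libraries was moderate. The Pearson correlation of their log2 CPM was 0.51 over the libraries and 0.59 over the 8 group means. By likeness to E3, E4 ranked above 91.0% of 19235 other transcripts (median r of 0.04), whereas by likeness to E4, E3 ranked above 74.8% (median r of 0.08). Libraries of one pool and of one line share their source, so these values only describe the table. By Pearson correlation over the libraries, the transcript most like E3 was Glyma05g37050.1 (r = 0.95 over 24 libraries), followed by Glyma09g31920.1 (0.86) and Glyma04g37990.1 (0.86). By the same measure the transcripts most like E4 were Glyma13g26700.1 (0.94), Glyma17g13900.1 (0.92) and Glyma15g03650.1 (0.91). The order depends on the measure: by Spearman correlation the 3 for E3 ranked 1, 16 and 55, at 0.88, 0.71 and 0.61, and the 3 for E4 ranked 33, 10 and 2. Over the 8 group means the ranks were 63, 61 and 197 for E3, and 224, 151 and 125 for E4. None of these 6 was called for a mean MAMP response or between lines in control leaves (edgeR adjusted p of 0.457 or more). No source used here pairs these identifiers with gene names.

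Other genes of the photoperiod pathway and the clock were described by a list. It held 42 loci, among them other phytochromes, GIGANTEA, FLOWERING LOCUS T, E1, ELF3, FKF1, CONSTANS, LHY, TOC1 and LUX homologues. Their identifiers were recalled from published gene names that no source used here annotates, so none is named singly. Of these loci 30 were tested, with 31 transcripts. For the mean MAMP response 0 of 31 were called, and 0 of 31 had an unadjusted p under 0.05 (edgeR), against 9.75% and 17.1% of all transcripts. DESeq2 and limma-voom also called 0. The table holds no replicate error of a MAMP response, so these counts do not show that the listed genes kept their level. Their median response was -0.13, against -0.03 over all tested transcripts, with a range of -0.89 to 0.27. Between lines in control leaves 1 of 31 was called, from the phytochrome group of the list, against 8.0% of all transcripts (edgeR F test). LD minus LDX and R-11268 minus R-11272 also called 1 of 31 each, from the same group, against 5.24% and 1.96%. The call was negative for the first contrast and positive for the second. In these contrasts the phytochrome group ran from -1.28 to 0.64 and from -0.26 to 1.11 on the log2 scale. Across lines, 7 of 31 had an unadjusted p under 0.05 (edgeR), against 20.4% of all transcripts. DESeq2 called 3 of 31 and limma-voom 2, against 3442 of 33067 and 3385 of 33214 over the table. For R-11268 minus R-11272 the list ran from -4.41 to 1.11, with a median of 0.13, against -0.02 over all tested transcripts. Group medians ran from -1.51 in the 3 FT-like transcripts, none of them called (edgeR), to 0.54 in the 6 phytochrome ones. Of the rubisco small subunit genes taken as leaf markers, recalled in the same way, 2 of 3 were measured, at 582 to 3899 CPM in sum. The list of 3 leghemoglobin and that of 4 seed storage genes had no row in the table used here. A missing row does not show absent expression, since not every rubisco locus had a row either.

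The loci around each maturity gene show which parent's expression an inbred line resembles in that stretch of chromosome. The 50 nearest tested loci on each side, by locus number, were taken in control leaves. Locus numbers give order and not distance, and neighbours are not tests of the maturity genes themselves. Around E3 the parents were alike: 1 of 100 transcripts was called between LD and LDX and none with a 2-fold difference, against 5.24% and 3.73% of all transcripts. In the same window 5 had an unadjusted p under 0.05 (edgeR), against 15.2% of all transcripts. DESeq2 and limma-voom called 3 and 2, against 1910 of 33064 and 2282 of 33214 over the table, with 0 of the window at 2-fold in both. The median absolute difference was 0.215 on the log2 scale, against 0.30 over all transcripts. The E3 stretch thus offered no neighbour called at 2-fold between the parents by which to place the inbred lines. Between the inbred lines edgeR called 1 of these 100, against 1.96% of all transcripts. Against LD it called 0 in R-11268 and 2 in R-11272, beside 1.52% and 4.0%. Against LDX it called 2 and 0, beside 3.84% and 2.24%.

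Around E4, 8 of 100 transcripts were called between the parents, 7 of them with a 2-fold difference, or 8% and 7% against 5.24% and 3.73% of all transcripts. An unadjusted p under 0.05 was found for 21 (edgeR), against 15.2% of all transcripts. DESeq2 and limma-voom called 9 and 12, each with 7 at 2-fold, against 1910 of 33064 and 2282 of 33214 over the table without the fold limit. These 7 lay 32 to 48 loci before E4 and 37 loci after it, and the 25 nearest loci on each side held 0. Glyma20g20350.1 summed to 818 estimated counts over the 3 LD control libraries, and LDX held 0, which puts LD at least 304-fold higher (floor of 3 counts over the group of 3 libraries, edgeR adjusted p = 1.25e-06). It measured 18.6 ± 2.42 CPM in LD, 23.6 ± 5.09 CPM in R-11268 and 66.3 ± 51.6 CPM in R-11272 (SD, n = 3). The R-11272 libraries gave 125, 44.5 and 29.3 CPM, the highest in the pool that stands apart.

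The next transcript by locus number in this group, Glyma20g20390.1, had the same order. It measured 3.89 ± 1.15 CPM in LD, 5.75 ± 0.271 CPM in R-11268 and 6.06 ± 0.538 CPM in R-11272 (SD, n = 3), while the LDX controls held 0, at least 69.6-fold lower than LD (edgeR adjusted p = 1.54e-08). Glyma20g20140.1 was the reverse. It measured 2.57 ± 0.595 CPM in LDX and 0 in the control libraries of LD, R-11268 and R-11272, at least 37.3-fold higher in LDX than in LD (edgeR adjusted p = 0.000392). At such low counts the SDs and p-values of fitted values may be too small.

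Each inbred line was placed between the parents on the log2 scale (pseudocount 0.5 CPM), with LDX at 0 and LD at 1. A transcript closer to LD than 0.25 of the parental difference was called LD-like, and likewise for LDX. In R-11268, 7 of the 7 transcripts beside E4 were LD-like, against 34.8% of the 1240 transcripts that differed 2-fold between the parents in the whole table. In R-11272, 4 were LD-like, 2 lay between the parents, 1 lay outside them (beyond LD) and 0 were LDX-like. The shares of the 1240 in the same order were 24.8%, 32.1%, 8.87% and 34.2%, where the 8.87% counts places beyond either parent. Of all 100 transcripts around E4, edgeR called 3 between the inbred lines, against 1.96% of all transcripts, whereas DESeq2 called 0 and limma-voom 6. Against LD, edgeR called 0 in R-11268 and 3 in R-11272, beside 1.52% and 4.0% of all transcripts. Against LDX it called 9 and 7, beside 3.84% and 2.24%. Neighbours share a stretch of chromosome and are not separate observations, and these shares were not tested. The transcripts were chosen by the contrast of the 2 parents. The filter, the scaling and the spread behind its p-values came from all 24 libraries, so the choice was not independent of the inbred lines. Whether E4 itself came from LD in both lines was not tested, since its own level did not separate the parents.

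Around the place of E2 on chromosome 10, 6 of 100 transcripts were called between the parents, 5 of them with a 2-fold difference, a share near the background of 5.24% and 3.73%. An unadjusted p under 0.05 was found for 13 (edgeR), against 15.2% of all transcripts. Between the inbred lines 1 of 100 was called, against 1.96% of all transcripts, and that was Glyma10g36540.1. Glyma10g36540.1, the sixth tested locus before E2, measured 1.68, 1.61 and 2.59 CPM in the LD controls. It was 0 in each LDX control after rounding, with 0.904 estimated counts in sum. R-11268 gave 0.377, 0.244 and 0.0514 CPM, and R-11272 gave 1.28, 1.94 and 2.79 CPM. The R-11268 libraries lay below all libraries of LD and R-11272. The parental difference had an edgeR adjusted p of 0.000126, and R-11268 minus R-11272 one of 0.00829. By place in control leaves, it was LDX-like in R-11268 and LD-like in R-11272. The R-11268 place of 0.223 lay close to the limit for LDX-like and rests on 11.9 estimated counts in sum. After MAMP treatment the mean was 0.487 CPM in R-11268, against 2.03 CPM in LD, 0 in LDX and 1.93 CPM in R-11272. No place was worked out for MAMP leaves, so the LDX-like class of R-11268 holds for control leaves only.

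The other 4 transcripts lay 43 or 44 loci away from E2 and were not called between the inbred lines (edgeR adjusted p of 0.193 or more). Glyma10g35860.1 measured 4.001 ± 0.933 CPM in LD and 0.368 ± 0.0625 CPM in LDX, with 2.62 ± 0.269 CPM in R-11268 and 1.82 ± 0.0913 CPM in R-11272 (SD, n = 3; edgeR adjusted p = 4.46e-09 between the parents). Glyma10g37280.1 summed to 16.0 estimated counts over the LDX control libraries, and LD held 0, which puts LDX at least 4.77-fold higher (edgeR adjusted p = 0.000267), and the inbred lines lay between. After MAMP treatment the parents were close, with LD at 1.18 ± 0.159 CPM and LDX at 1.11 ± 0.257 CPM (SD, n = 3), so its place holds for control leaves only. Over all 5 transcripts R-11268 had 1 LD-like, 1 LDX-like and 3 between, and R-11272 had 2 LD-like, 1 LDX-like and 2 between.

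**Figure D4:**
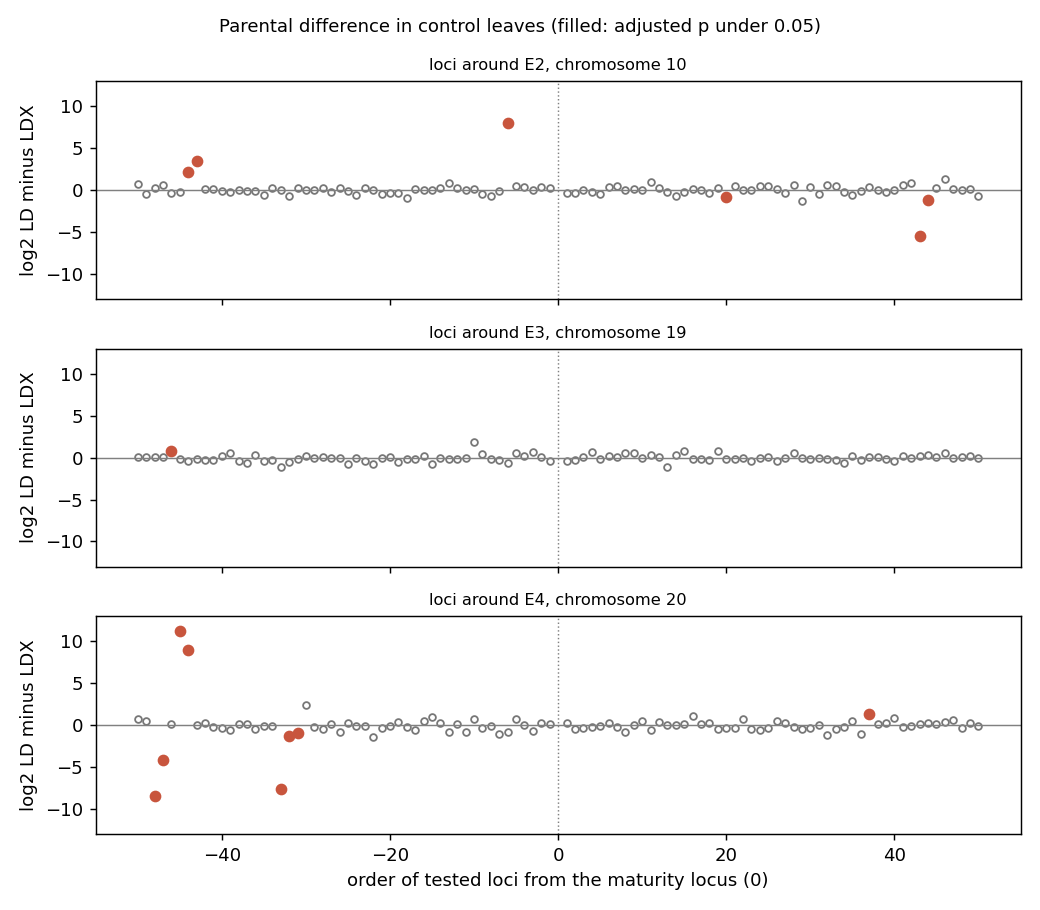
Log2 difference of LD minus LDX in control leaves for the 50 nearest tested loci on each side of E2 (top), E3 (middle) and E4 (bottom), in the order of their locus numbers. Filled points passed an adjusted p of 0.05: 6 around E2, 1 around E3 and 8 around E4.

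**Figure D5:**
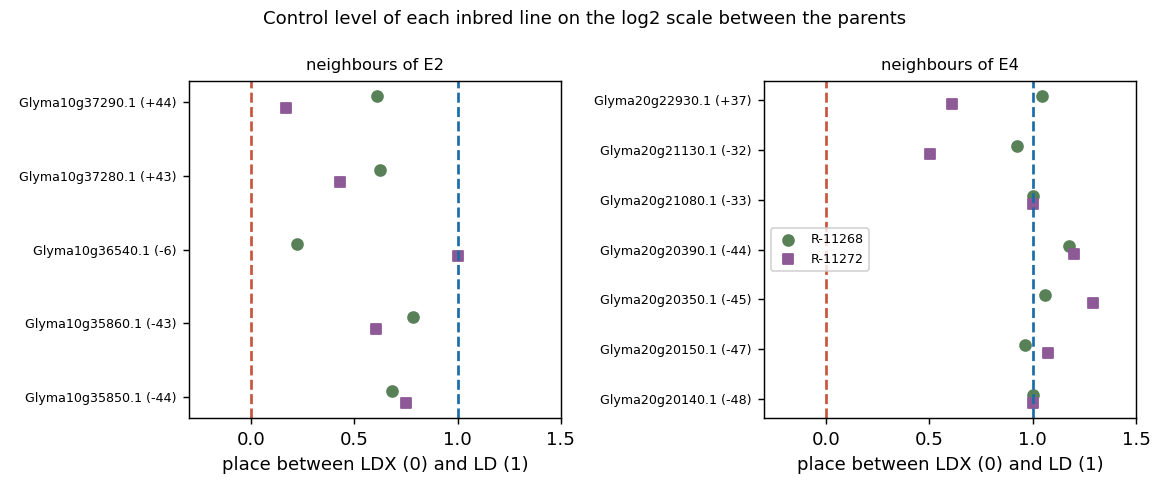
Place of R-11268 (circles) and R-11272 (squares) between LDX (0) and LD (1) on the log2 scale in control leaves, for the 5 neighbours of E2 (left) and the 7 of E4 (right) that differed 2-fold between the parents, with their order from the maturity locus in brackets. All 7 values of R-11268 beside E4 lie near 1, and no value of either line there lies near 0.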

How the data were processed

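The authors deposited 1 table of estimated counts per transcript for 24 libraries, and per the submitters' processing notes the tools include TopHat 1.4.1, Cufflinks 1.1.0 and Bowtie 0.12.7, with no roles stated. No source used here gives the counting step, the build, the annotation or the treatment of reads shared by similar genes, so reads of E3, E4 and related phytochrome genes could be split between them. Column names ending in C were read as control and those in P as MAMP. After rounding to whole numbers, edgeR 4.0.16 was run under R 4.3.3 (filterByExpr with minimum count 10 and minimum total 15, TMM, 1 quasi-likelihood fit with 8 group means, Benjamini-Hochberg over all transcripts, threshold 0.05), with DESeq2 1.42.0 and limma 3.58.1 as alternatives. The code was tested on simulated data with independent libraries, which share no pools as these do, so error rates in these data were not tested. Labels do not say that pools are independent plantings, so p-values measure spread between these pools only. Same-numbered libraries of a line deviated from their group means together (correlation 0.996 or more, against at most 0.887 for other numbers), which the fitted values alone could give. Members, lists and tests were chosen with earlier results of these data known. Named were the members, the 3 transcripts most like each (mean of 100 or more estimated counts) and up to 3 neighbours of each with the widest called parental difference of 2-fold or more. None of the 41743 identifiers (0 matched) is in the RefSeq gene table, which lists E2 on chromosome 10, PHYA3 on 19 and E4 on 20 by symbol, and no sequence or coordinate was used.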

Additional observations from a re-analysis of the deposited data

How the results depend on the processing

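Apart from the replicate block, 0 of 1156 alternative values of E3 and E4 passed the threshold. With the replicate block the mean E4 response (-0.11) and the range of its 4 responses (0.17) were called, with edgeR adjusted p of 5.94e-12 and 0.00512, but that fit is void because the fitted values hold no replicate error of the response. E4 in R-11272 minus LD stayed below 0, at -0.58 to -0.35 when 1 library or pool was left out (lowest edgeR adjusted p 0.127). Other differences kept their sign but moved by over 1.5 times: E4 from 0.104 to 0.373 for LD minus LDX, 0.142 to 0.399 for R-11268 minus R-11272, -0.301 to -0.0366 for R-11268 minus LD and -0.385 to -0.0965 for R-11272 minus LDX, and E3 from -0.304 to -0.0186 for R-11272 minus LD and -0.313 to -0.0125 for R-11272 minus LDX. Values near 0 changed sign, and the cause was not tested. E3 in LD minus LDX was -0.0137 with DESeq2 size factors, -0.0165 with the DESeq2 test, -0.0299 with a mean of 100 or more, -0.0574 with sums of control and MAMP libraries and -0.0735 without the 3 pools that stand apart, an alternative chosen after seeing the data. Without those pools E3 was -0.0958 for R-11268 minus R-11272 and 0.0434 for R-11272 minus LD, and E4 was -0.117 for R-11268 minus LDX. With total counts only the E3 response was -0.0228 in LDX, -6.36e-05 in R-11268 and -0.0316 on average. The E3 response of R-11272 was -0.0118 with DESeq2 size factors, -0.00964 with the DESeq2 test, -0.00451 with no filter and -0.00289 with a mean of 100 or more. Leaving out 1 library or 1 pool gave E3 values of -0.0536 to 0.0820 for LD minus LDX, -0.101 to 0.219 for R-11268 minus R-11272, and responses of -0.103 to 0.0472 (LD), -0.00222 to 0.129 (R-11268), -0.154 to 0.164 (R-11272) and -0.0122 to 0.0674 (mean). E4 values were -0.103 to 0.190 for R-11268 minus LDX, and responses of -0.176 to 0.118 (LD) and -0.264 to 0.0269 (LDX). With the 25 nearest loci on each side, 0.0% of transcripts around E4 and 2.0% around E2 were called between the parents at 2-fold, against 7.0% and 5.0% with 50.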
